A study of Mus musculus with 4 samples.

Results

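Small nucleolar RNAs (snoRNAs) were followed in whole brains of mouse fetuses after ethanol exposure. They were taken as the probe sets whose platform annotation gives only symbols starting with Snord, Snora or Scarna, and 62 of the 35556 probe sets of the table met this rule. Of these, 35 belong to box C/D snoRNAs (Snord), 23 to H/ACA snoRNAs (Snora) and 4 to small Cajal body RNAs (scaRNAs, Scarna). They carry 56 different symbols, and 2 probe sets carry a pair of symbols. The 62 probe sets hold 58 distinct sets of values, since Snord118, Scarna17, Snora30 and the pair Snord1c and Snord1b each appear on 2 probe sets with the same value on every array.

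The ethanol group consisted of fetuses whose C57BL/6J mothers, of an inbred laboratory strain, received 2.5 g of ethanol per kg in saline on gestational days 14 and 16, and the control group of fetuses whose mothers received saline alone. Brains were taken at embryonic day 16, and RNA of 3 mice was pooled for each Affymetrix whole-transcript array, with 2 ethanol and 2 control arrays from 12 mice. The values are log2 signals, and a difference is given as the ethanol mean minus the control mean on that scale, with its standard error (SE) and 2 arrays per group throughout. In whole brain, a lower signal from fewer cells of a type and one from less RNA per cell cannot be told apart.

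snoRNAs are short RNAs of the nucleolus that are mostly cut from introns of longer host transcripts. Box C/D snoRNAs pair with ribosomal RNA and guide its 2'-O-methylation by fibrillarin, while H/ACA snoRNAs guide the change of uridine to pseudouridine by dyskerin. A few members of both classes are needed for cutting the ribosomal RNA precursor instead, and scaRNAs guide the same modifications on spliceosomal RNAs in Cajal bodies. Some families of imprinted snoRNA genes are expressed mainly in brain.

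The arrays had nearly equal medians, at 8.04 and 8.01 in ethanol and 8.04 and 8.01 in control. On all 4 arrays, 44 of the 62 snoRNA probe sets lay above the array's median and 2, Snord38a and Snord73a, below its lower quartile. The neuronal markers had medians of 12.17 and 12.04 in ethanol and 12.03 and 12.08 in control, and the lowest of 8 was at 10.55. The pools differed within groups in 12 skeletal muscle genes, with medians of 7.40 and 8.33 in ethanol 1 and ethanol 2 and of 9.80 and 7.28 in control 1 and control 2, and Xist was at 6.10 in control 1 and at 11.96 or more elsewhere. The Y-linked gene Kdm5d stood at 10.12 and 9.22 in ethanol against 10.59 and 9.07 in control, and Eif2s3y and Uty ordered the pools alike. Control 1 was thus at the extreme in all of these. Ethanol 1 came next to it in the Y-linked genes and ethanol 2 in the muscle medians. Values without control 1 or another pool are given where stated. The labels do not say which litters the pooled mice came from, so p-values measure only the spread between these pools.

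Most snoRNA probe sets lay slightly lower in ethanol, and none passed the test over the whole table. Of the 62, 46 had a difference below 0 and 16 above 0, with a median of -0.06, whereas 46.5% of the 23410 probe sets with a gene symbol lay below 0, with a median of 0.0074. Limma called 0 of 62 snoRNA probe sets and 0 of 35556 probe sets at a Benjamini-Hochberg adjusted p under 0.05 (percent called 0), and the smallest adjusted p of a snoRNA was 0.9945. At an unadjusted p under 0.05 limma counted 4 snoRNA probe sets, against 3.95% of all probe sets and 1.75% of those with a gene symbol. An unadjusted p under 0.05 together with a fold of at least 1.2 was met by the same number, 4 of 62, against 2.79% of all probe sets and 0.812% of those with a gene symbol. Of these 4, 3 were lower and 1 was higher in ethanol, against 1.66% of all probe sets lower and 1.13% higher. Among those with a gene symbol it was 0.478% lower and 0.333% higher. Without control 1 that number was 0, 38 of 62 lay below 0 and the median came to -0.03, while 46.2% of probe sets with a gene symbol lay below 0. Without ethanol 1, 40 of 62 lay below 0 with a median of -0.05, while 55.1% of probe sets with a gene symbol lay below 0.

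The groups did not overlap in 18 snoRNA probe sets that were lower in ethanol and in 4 that were higher. Over all probe sets, 14.7% had both ethanol arrays below both control arrays and 16.8% had both above, and among those with a gene symbol 14.2% and 16.9%. The share was 29% lower and 6.45% higher among snoRNA probe sets. Counting equal values once left 16 lower and 4 higher of 58. An exact permutation test of 2 against 2 arrays cannot go below a two-sided p of 0.333, so no p is given for a single member by that test.

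**Figure D1:**
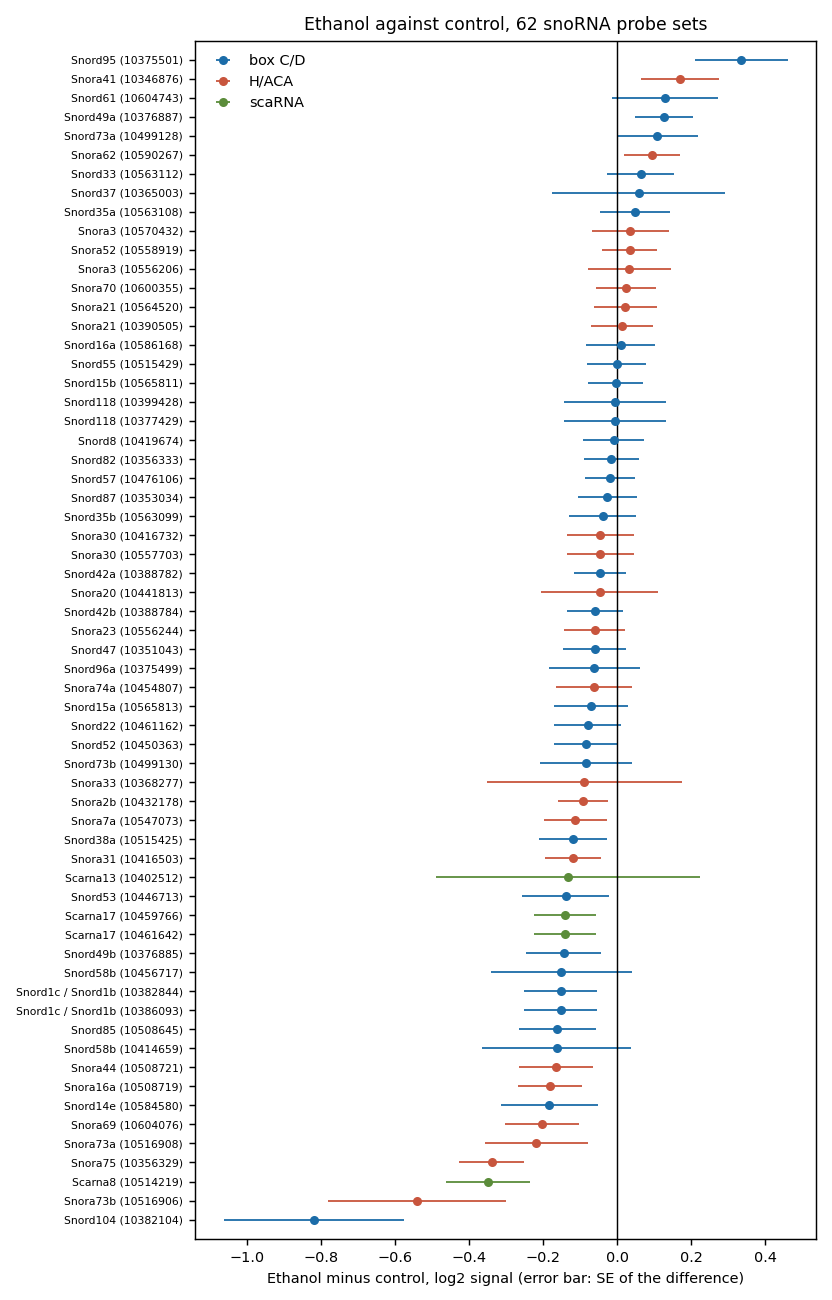
Log2 difference (ethanol minus control, x axis) of each of the 62 snoRNA probe sets, named on the y axis with the probe set number, with the SE of the difference as bars and colours for box C/D, H/ACA and scaRNA. Differences run from -0.82 for Snord104 to 0.33 for Snord95, and 46 of 62 points lie below 0.

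Among snoRNAs with a fold of at least 1.2 and groups that did not overlap, 4 were lower and 1 was higher in ethanol. The share of all probe sets that meet both conditions was not counted, so these numbers have no comparison. This rule sets no limit on p, and Snora73b enters with an unadjusted p of 0.077 from limma. Snord104, a box C/D snoRNA that guides methylation of 28S ribosomal RNA in human, had signals of 10.16 and 10.85 in ethanol against 11.43 and 11.22 in control. Both ethanol pools were below both control pools, and the ethanol pools were 0.69 apart. The difference was -0.82 ± 0.24, the lowest of the 62, with an adjusted p of 0.9945 from limma. It was -0.48 without ethanol 1, the lower of the ethanol pools, and -1.16 without ethanol 2.

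Snora73b, one of the copies of the U17 RNA needed for the early cuts that release 18S ribosomal RNA, stood at 7.40 and 8.10 in ethanol against 8.33 and 8.26 in control. Its low value came from ethanol 1, and ethanol 2 lay just under both controls. The difference was -0.54 ± 0.24, and it was -0.19 without ethanol 1. Its neighbour Snora73a, the other copy in the same host transcript, stood at 7.97 and 8.28 in ethanol against 8.45 and 8.25 in control, a difference of -0.22 ± 0.14 with overlapping groups. The copies are related in sequence, so their signals may not be fully separate.

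Snora75, the U23 RNA, which guides pseudouridylation of 18S ribosomal RNA in human, stood at 8.25 and 8.10 in ethanol against 8.56 and 8.47 in control. The gap between groups exceeded the 0.15 and 0.09 between pools within them. Its difference was -0.34 ± 0.09, with -0.41 to -0.27 when any 1 array was left out. Scarna8, a scaRNA also called U92 that guides pseudouridylation of the spliceosomal U2 RNA in human, stood at 6.97 and 7.01 in ethanol against 7.48 and 7.20 in control. Both ethanol pools were close together and control 1 was the highest pool. The difference was -0.35 ± 0.11 and came to -0.21 without control 1.

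Snord95 was the 1 member higher in ethanol by this rule. It is a box C/D snoRNA that guides methylation of 28S ribosomal RNA in human, and its signals were 10.74 and 10.50 in ethanol against 10.17 and 10.40 in control. The higher control pool lay only slightly under the lower ethanol pool. The difference was 0.33 ± 0.13, and it was 0.22 without control 1 and 0.22 without ethanol 1. All 5 kept their sign when any 1 array was left out, which is fixed by their selection as groups that do not overlap.

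**Figure D2:**
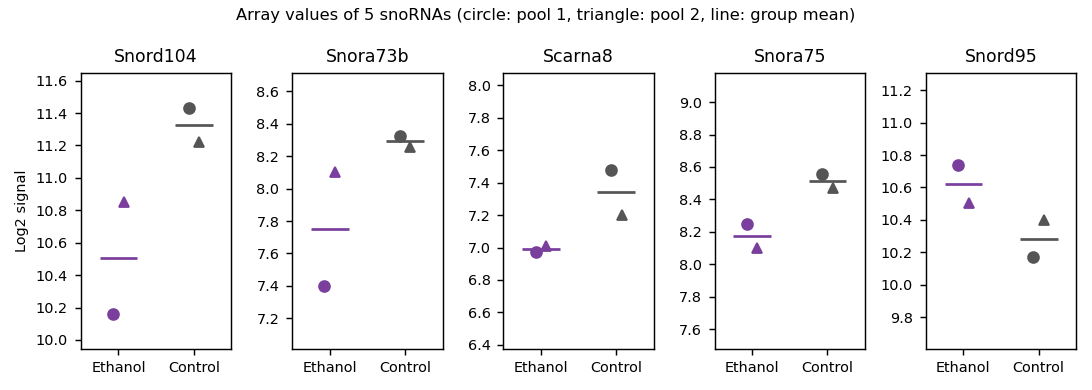
Log2 signal (y axis, the same span in each panel) of Snord104, Snora73b, Scarna8, Snora75 and Snord95 in the ethanol and the control pools, with circles for pool 1, triangles for pool 2 and lines for the group means. Pools of a group lie up to 0.70 apart (Snora73b in ethanol), and the groups do not overlap in any of the 5, by selection.

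Box C/D and H/ACA snoRNAs had similar medians of the difference. Among 35 box C/D probe sets 27 lay below 0, with a median of -0.05 and a range of -0.82 to 0.33. Among 23 H/ACA probe sets 15 lay below 0, with a median of -0.06 and a range of -0.54 to 0.17. Groups that did not overlap, lower in ethanol, were seen in 7 box C/D and 8 H/ACA probe sets, and higher in ethanol in 2 of each class. Those lower are 20% of box C/D and 34.8% of H/ACA probe sets, against 14.7% of all probe sets, and those higher are 5.71% and 8.7%, against 16.8%. All 4 scaRNA probe sets lay below 0 with a median of -0.14, of which 2 are the same values of Scarna17. Over the pools, the median deviation of a box C/D probe set from its own mean was -0.0097 and -0.02 in ethanol 1 and ethanol 2 and 0.04 and -0.0095 in control 1 and control 2. For H/ACA probe sets it was -0.06 and -0.02 in ethanol and 0.09 and -0.01 in control. Control 1 was thus the highest pool in both classes, and it also had the highest levels of the 12 muscle genes, whose part in the difference was not tested. Without control 1 the median was -0.03 for box C/D and 0.0052 for H/ACA snoRNAs, so the H/ACA median changed sign. The pair of ethanol 2 and control 2 gave medians of -0.01 for box C/D and 0.0042 for H/ACA, and the pair of ethanol 1 and control 1 gave -0.06 and -0.10.

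**Figure D3:**
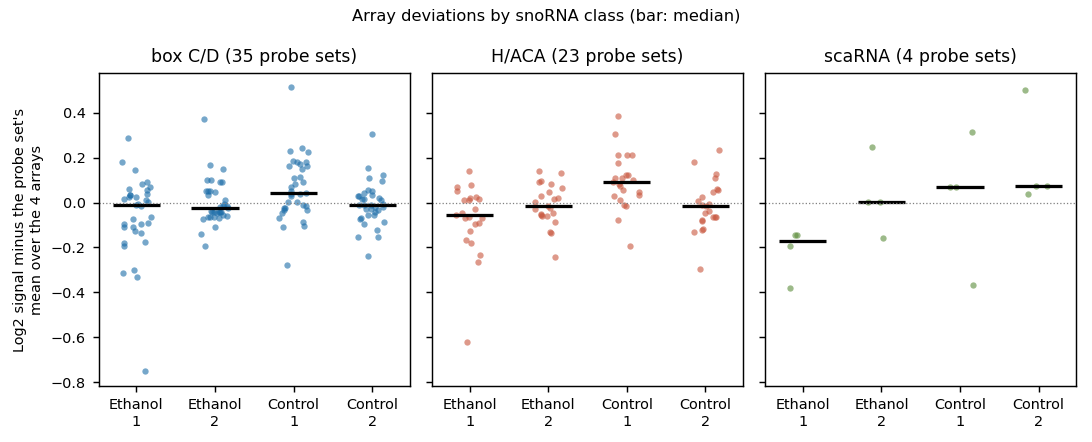
Deviation of each probe set's log2 signal from its own mean over the 4 arrays (y axis) by pool (x axis), in panels for box C/D, H/ACA and scaRNA, with points for probe sets and bars for medians. The H/ACA bar is highest in control 1, at 0.09, and the box C/D bars lie between -0.02 and 0.04.

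The snoRNAs needed for cutting the ribosomal RNA precursor had 5 measured members, of which 5 had differences below 0, where 46.5% of all probe sets lay below 0, and none passed the test. Without ethanol 1 it was 3 of 5, with a median of -0.06 in place of -0.18, and without control 1 it was 4 of 5. Besides Snora73b and Snora73a they were Snord14e, a copy of the U14 RNA, Snord22 (U22) and Snord118 (U8). Snord14e stood at 10.04 and 10.20 in ethanol against 10.45 and 10.15 in control, a difference of -0.18 ± 0.13 in which control 1 was the outlying pool. Snord22 had a difference of -0.08 ± 0.09. Snord118, which is needed for 28S and 5.8S ribosomal RNA and has a gene of its own, stood at 8.39 and 8.57 in ethanol against 8.65 and 8.33 in control. Its pools overlapped completely and its difference was -0.0056 ± 0.14.

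Of the snoRNAs that lie in the Rpl13a gene and act in the response of mouse and hamster cells to lipid overload, Snord33 and Snord35a had probe sets of their own. Snord33 stood at 8.32 and 8.22 in ethanol against 8.13 and 8.28 in control, and Snord35a at 9.33 and 9.20 against 9.29 and 9.14. Their differences of 0.06 ± 0.09 and 0.05 ± 0.09 were within the spread of the pools. Snord47, from the growth-arrest transcript Gas5, stood at 10.62 and 10.53 in ethanol against 10.57 and 10.70 in control, a difference of -0.06 ± 0.09. No probe set of the imprinted families Snord113 to Snord116 met the rule.

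Of the scaRNAs, Scarna17 stood at 10.29 and 10.44 in ethanol against 10.50 and 10.51 in control on both of its probe sets. The ethanol pools were both lower, and the difference was -0.14 ± 0.08. Scarna13 had the largest gap between pools of a group, with 9.77 and 10.39 in ethanol against 9.78 and 10.65 in control. Its level was low in pool 1 and high in pool 2 of either group, and its difference of -0.13 ± 0.36 was small beside these gaps. The next largest gaps were those of Snora73b and Snord104, given above, of Snord37 with 0.68 between the ethanol pools, and of Snora33 with 0.68 between the control pools. Snora33, in the Rps12 gene, stood at 7.50 and 7.87 in ethanol against 8.11 and 7.43 in control. The pools stood in the same order as their muscle gene medians, whose part was not tested.

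Further H/ACA members with groups that did not overlap and smaller folds were Snora69 at -0.20 ± 0.10, Snora16a at -0.18 ± 0.09, Snora44 at -0.17 ± 0.10, Snora31 at -0.12 ± 0.08, Snora7a at -0.11 ± 0.08 and Snora2b at -0.09 ± 0.07. Snora2b had nearly equal pools, with 8.21 and 8.21 in ethanol against 8.31 and 8.31 in control. Among box C/D snoRNAs the like were Snord85 at -0.16 ± 0.10, both probe sets of Snord1c and Snord1b at -0.15 ± 0.10, Snord38a at -0.12 ± 0.09, Snord42a at -0.05 ± 0.07 and Snord57 at -0.02 ± 0.07. Snord38a was dim, at 5.81 and 5.82 in ethanol against 5.84 and 6.02 in control. Higher in ethanol without overlap, besides Snord95, were Snora41 at 0.17 ± 0.10, Snord49a at 0.13 ± 0.08 and Snora62 at 0.09 ± 0.08. All these members were chosen here after their values were seen. The remaining 40 probe sets had overlapping groups, and they include the brightest but for Snord57, such as Snord82 at 12.50 and 12.42 in ethanol against 12.45 and 12.50 in control.

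By position in the RefSeq annotation of assembly GRCm38.p6, 60 of the 62 probe sets belong to snoRNAs that lie inside a longer gene, 3 of them inside a pair of genes. The table gives no strand, so a host was taken as any longer gene whose span holds the snoRNA. Of 15 probe sets in noncoding host transcripts, such as Snhg3, Snhg12, Snhg16 and Gm36220, 14 lay below 0, with a median of -0.14. In 8 of them (53.3%) both ethanol pools were below both controls, against 14.7% of all probe sets. Without control 1 it was 13 of 15 with a median of -0.12, and without ethanol 1 it was 11 of 15 with a median of -0.07. Of 42 probe sets in protein coding genes 27 lay below 0, with a median of -0.05 and 10 apart and lower, and without control 1 it was 24 with a median of -0.01. Of these, the 24 in ribosomal protein genes had 13 below 0, with a median of -0.0033 and 4 (16.7%) apart and lower, near the 14.7% of all probe sets. The other 18 had 14 below 0, with a median of -0.05 and 6 (33.3%) apart and lower, and without control 1 it was 10 of 18. Of probe sets with a gene symbol, 46.5% lay below 0, with 46.2% without control 1 and 55.1% without ethanol 1. This split was made after the values were seen, and the difference between the kinds of host was not tested. The 15 probe sets hold 13 distinct sets of values from 10 host transcripts.

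Host genes with a probe set under their own symbol could be set beside 28 snoRNAs in 24 hosts. Of the hosts, 19 lay below 0, with a median of -0.07 and a range of -0.39 to 0.15, and no host passed the adjusted test. Without ethanol 1 it was 14 of 24 with a median of -0.02, and without control 1 it was 16 of 24 with a median of -0.01. The snoRNA and its host had the same sign in 16 of 28, and Pearson's r over these 28 snoRNAs was 0.10 (0.08 without control 1), given as a description of points that share the same arrays and, in part, hosts. Ncl, the nucleolin gene, stood at 11.68 and 11.93 in ethanol against 12.16 and 12.00 in control, a difference of -0.28 ± 0.12. Of its snoRNAs, Snora75 had the difference of -0.34 given above and Snord82 one of -0.02 ± 0.07. Rpsa, a small-subunit ribosomal protein gene, stood at 10.34 and 10.76 in ethanol against 10.93 and 10.94 in control, a difference of -0.39 ± 0.15, while its snoRNA Snora62 was at 0.09 ± 0.08. Rpsa has 5 probe sets with this symbol, of which the brightest was used, and near-identical copies of ribosomal protein genes may share its signal. Positions of the host probe sets were not checked, for Rpsa or for the other hosts. A host's value may thus come from a copy elsewhere and not from the gene that holds the snoRNA. This limits the comparison over the 28 snoRNAs. Snhg16 stood at 7.52 and 7.60 in ethanol against 7.46 and 7.43 in control, a difference of 0.11 ± 0.07, while its snoRNAs Snord1c and Snord1b lay at -0.15. Haus6, a subunit of the augmin complex of the mitotic spindle and host of Scarna8, had a difference of -0.19 ± 0.13 with overlapping groups.

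**Figure D4:**
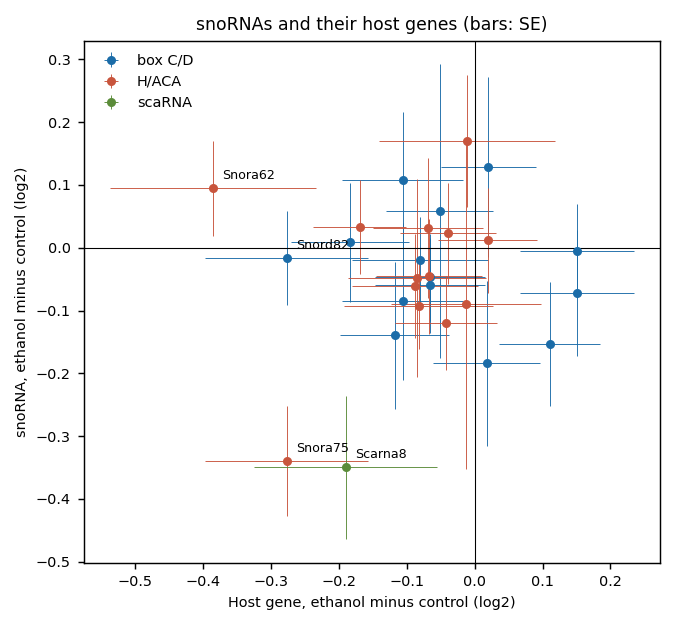
Log2 difference (ethanol minus control) of 28 snoRNAs (y axis) against that of their host genes (x axis), with SE bars and colours for the class. Host values come from the brightest probe set with the host's symbol, whose position was not checked. Snora75 and Scarna8 lie low with their hosts, whereas Snora62 lies at 0.09 with its host at -0.39, and r over the points is 0.10.

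Pairs of snoRNAs from 1 host mostly had differences of the same sign. Among 10 hosts with 2 snoRNAs that met the rule, the differences had opposite signs in Rack1, Rps3a1 and 2410006H16Rik, and 0 hosts had 3 or more such members. Rpl13a and Hspa8 hold further snoRNAs whose probe sets also carry another symbol, and these are given at the end. The hosts described here were chosen after their values were seen. Rack1, a scaffold protein of the ribosome, holds Snord95 at 0.33 ± 0.13 and Snord96a, a guide for 5.8S ribosomal RNA in human, at -0.06 ± 0.12. Snord96a stood at 7.68 and 7.62 in ethanol against 7.87 and 7.56 in control. In Rps3a1, Snord73a at 0.11 ± 0.11 and Snord73b at -0.09 ± 0.12 each lay within their SE of 0. In 2410006H16Rik, Snord49a had 7.94 and 8.01 in ethanol against 7.81 and 7.90 in control, and Snord49b had 10.00 and 10.21 against 10.29 and 10.21. The pair in Snhg12, Snora16a and Snora44, was alike at -0.18 and -0.17, and so was that in Rpl23a, Snord42b and Snord42a, at -0.06 and -0.05.

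Many snoRNA hosts belong to the class of genes whose transcripts begin with a C followed by a run of pyrimidines, the terminal oligopyrimidine tract. The starts of the hosts of the 5 members above are shown because those members carry the largest differences. They are RefSeq sequences of GRCm38.p6 on the strand of the gene, with 25 bases before and 25 from the annotated start, and capitals mark the first 6 bases from that start.
Gm36220, host of Snord104, chr11:106500890-106500939, plus strand: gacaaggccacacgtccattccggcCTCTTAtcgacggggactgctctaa
Snhg3, host of Snora73b, chr4:132353662-132353711, minus strand: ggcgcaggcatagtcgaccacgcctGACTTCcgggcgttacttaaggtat
Haus6, host of Scarna8, chr4:86612031-86612080, minus strand: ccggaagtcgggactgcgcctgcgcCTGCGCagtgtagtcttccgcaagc
Ncl, host of Snora75, chr1:86359431-86359480, minus strand: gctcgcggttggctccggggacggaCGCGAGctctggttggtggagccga
Rack1, host of Snord95, chr11:48800335-48800384, plus strand: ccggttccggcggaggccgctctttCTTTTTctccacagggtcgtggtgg
The letters CTTTC, searched on the strand of the gene in these windows of 50 bases, were present in 10 of 36 promoter entries of host genes (27.8%) and in 6.75% of all 32851 entries. Entries were found for 34 of 47 host genes. Of the 5 shown, Rack1 holds the letters, which run across its annotated start. Since the windows include 25 bases before the start, these shares do not count terminal oligopyrimidine tracts. The sequences and the motif were chosen after the values were seen.

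Genes for the proteins that bind and process snoRNAs had no member past the adjusted test. All 7 genes of the box C/D particle and its assembly lay below 0, with a median of -0.09, against 2 of 6 genes of the H/ACA particle, with a median of 0.01, while 46.5% of probe sets with a gene symbol lay below 0. Both counts rest on single arrays. Without ethanol 1, 3 of 7 box C/D genes lay below 0 with a median of 0.01, and without ethanol 2, 4 of 6 H/ACA genes lay below 0 with a median of -0.06. Without control 2 it was also 4 of 6 H/ACA genes, and without control 1 it was 6 of 7 and 1 of 6. Snu13, the protein that first binds the box C/D RNA, stood at 11.87 and 11.95 in ethanol against 12.04 and 12.09 in control, a difference of -0.15 ± 0.08. Snu13 has 4 probe sets with this symbol, of which the brightest was used, and its position was not checked. Znhit6, an assembly factor of the box C/D particle, was at -0.16 ± 0.07, and Nop58, a core protein of that particle, at -0.09 ± 0.10. Dkc1, the pseudouridine synthase of the H/ACA particle, stood at 9.19 and 9.60 in ethanol against 9.60 and 9.35 in control, a difference of -0.08 ± 0.17, and Shq1 and Gar1 at 0.07 ± 0.10 and -0.04 ± 0.07. Among 5 measured general assembly factors, 2 lay below 0 (3 without control 1), with Rpap3 at -0.33 ± 0.15, Pih1d1 at -0.14 ± 0.07 and the ATPase Ruvbl1 at 0.15 ± 0.07.

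Of 11 Cajal body and nucleolar proteins 6 lay below 0 (5 without control 1), with Ncl as given, Smn1, the protein lost in spinal muscular atrophy, at 0.22 ± 0.11 and Wrap53, which binds scaRNAs, at -0.15 ± 0.09. Of 16 genes of end processing and decay 11 lay below 0, with a median of -0.01 (6 without ethanol 1, with a median of 0.02, and 8 without control 1, with a median of 0.0029), and the debranching enzyme Dbr1 stood at 0.15 ± 0.10. Exosc9 and Exosc10, of the exosome that trims snoRNA ends, were at -0.15 ± 0.12 and -0.09 ± 0.07. Of 17 genes of RNA polymerase I and ribosomal RNA processing 11 lay below 0, with a median of -0.04 (7 without ethanol 1, with a median of 0.02). Of these, 1 gene met the unadjusted rule with a fold of at least 1.2, lower in ethanol, against 0.478% of probe sets with a gene symbol. It was Polr1c, a subunit of RNA polymerases I and III, at 10.08 and 10.31 in ethanol against 10.51 and 10.50 in control, a difference of -0.31 ± 0.10. Polr1e, another polymerase I subunit, was at -0.18 ± 0.07, and Ubtf, the activator of that polymerase, at -0.11 ± 0.07. Of 8 measured genes on a list of noncoding hosts, 5 lay below 0, with a median of -0.05 (4 without ethanol 2, with a median of 0.0082). Among the 8, Gas5 was at -0.13 ± 0.08, Snhg17 at -0.12 ± 0.10 and Snhg5 at 0.11 ± 0.09. None of the 8 is among the noncoding host transcripts counted above by position. Of those transcripts only Snhg16, given above, had a probe set under its own symbol.

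MicroRNA probe sets, which are also annotated to short RNAs, were taken as the nearest other set on this array. For either set, signal from the short RNA and from a longer precursor or host transcript cannot be told apart in these values. Their 336 probe sets had a median difference of 0.02, with 45.5% below 0, against -0.06 and 74.2% for the snoRNAs. Without ethanol 1 the microRNA median was -0.04 with 64.9% below 0, against -0.05 and 40 of 62 for the snoRNAs, so the sets were then close. Without control 1 the microRNA median was 0.0082 with 45.8% below 0, against -0.03 and 38 of 62 for the snoRNAs. Lower and higher in ethanol without overlap were 14.9% and 12.2% of microRNA probe sets. By the unadjusted rule with a fold of at least 1.2 the sets were closer, with 6.45% of snoRNA and 4.76% of microRNA probe sets, and 4.84% and 4.46% in the lower direction. At an unadjusted p under 0.05 alone it was 6.45% of snoRNA and 7.14% of microRNA probe sets. The median SE of a difference was 0.09 for both and 0.08 for probe sets with a gene symbol. The SD of the log2 difference between the 2 ethanol pools was 0.23 for snoRNA probe sets, 0.18 for microRNA probe sets and 0.17 for those with a gene symbol. Between the 2 control pools it was 0.21, 0.15 and 0.22 in the same order, where snoRNA probe sets and those with a gene symbol were close. The members' differences showed no relation to their mean signal (r = 0.0013) and a weak one to the length of the RNA (r = -0.17), both over the 58 distinct sets of values and given as descriptions.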

How the data were processed

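The authors deposited 1 log2 signal for each probe set on each array, and log2 rather than another base was inferred from the range of the values. Per the submitters' processing notes, Partek 6.6 was used. Their background correction and normalization were not given in the sources used here. Of the probe sets, 21789 have 1 symbol in the platform annotation, 1621 several and 12146 none, and all 62 members matched RefSeq by Entrez identifier. Limma 3.58.1 in R 4.3.3 was fitted to all 35556 probe sets with eBayes (two-sided, 4.69 total degrees of freedom) and tested on simulated data. Fold thresholds were 1.2 and, as an alternative, 1.5.

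The members and the lists were chosen with earlier results of these data known. The naming rule took members with a fold of at least 1.2 and groups apart (up to 10 per direction), functional snoRNA lists, scaRNAs, hosts with 3 or more members, the 3 genes of each protein and host list with the smallest p, and the 5 members with the largest gaps between pools. Genes of lists and hosts were read from the probe set with 1 symbol and the highest mean. Hosts were to be matched by strand, but the gene table gives none, so position alone was used. Alternatives were other scalings, a filter on dim probe sets, other sets of features and members, other variance models, a replicate block and leaving out each array. No label says that equal replicate numbers share a source, and the deviations of same-numbered arrays correlated at -0.281.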

Additional observations from a re-analysis of the deposited data

How the results depend on the processing

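The number of snoRNA probe sets past the adjusted threshold was 0 under each alternative run, and the 5 named snoRNAs kept their sign wherever they entered (Scarna8 and Snora73b are not among the brighter probe sets). For these 5 the sign without any 1 array follows from the selection, since their groups do not overlap. The 3 lower and 1 higher by the unadjusted rule became 0 and 0 in the ordinary test, which shares no variance, and 1 and 0 at a fold of 1.5. Leaving out 1 array gave 0 to 4 lower and 0 to 1 higher, with 0 of either without control 1. With 1 array fewer, groups separate more easily, and 24 to 39 members were then apart and lower (38.7% to 62.9%, against 28.1% to 34% of all probe sets) and 8 to 17 apart and higher (12.9% to 27.4%, against 25.7% to 45%). Among brighter probe sets, where 46 members enter, 1 was apart and higher. After repeated quantile normalization 40 of 62 members lay below 0, with a median of -0.042, against 47.7% of probe sets with a gene symbol. After median centring it was 44 with a median of -0.056, against 44%. Apart and lower were then 13 and 15 members in place of 18, and the share over all probe sets was not counted there. The box C/D median was -0.018 after repeated quantile normalization, and the cause was not tested. Leaving out 1 array gave H/ACA medians of -0.11 to 0.0052 (above 0 without control 1) and scaRNA medians of -0.29 (without ethanol 2) to -0.068 (without ethanol 1). With the replicate block 3 were lower and 0 higher by the unadjusted rule. With crossed pairing, chosen after seeing the data, 4 were lower and 1 higher. The share of all probe sets that met the unadjusted rule was not counted under the alternatives, so these numbers have no comparison. Counting equal values once, the split by kind of host and leaving out arrays for lists, hosts and microRNAs were also chosen after seeing the data.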

Other observations

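Probe sets that pair a snoRNA symbol with another gene were outside the rule and numbered 39. Of these, 24 carry Snord116l1 and Snord116l2, copies of the imprinted Snord116 snoRNA of the Prader-Willi region, together with Gm26504. They were bright, with medians of 13.90 and 13.77 in ethanol against 13.95 and 13.94 in control. All 24 lay lower in ethanol without overlap, by -0.12 to -0.10, where 14.7% of all probe sets were apart and lower. In limma, 0 of them met the unadjusted rule with a fold of at least 1.2, against 2.79% of all probe sets. They hold 7 distinct sets of values and the copies are near-identical, so they are not 24 separate measurements. The median was -0.05 without ethanol 2. That all 24 stayed below 0 with any 1 array left out follows from groups that do not overlap.

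The other 15 had differences of -0.15 to 0.13, with 10 above 0 (6 without ethanol 1). Snord32a and Snord34, the further Rpl13a snoRNAs, share their probe sets with Rpl13a and stood at 0.04 ± 0.09 and 0.03 ± 0.08. The U14 copies Snord14c and Snord14d appear together with Hspa8 on 2 probe sets, at -0.14 ± 0.12 and -0.13 ± 0.12, and Snord14a with Rps13 was at 0.03 ± 0.16. On both probe sets of Snord14c and Snord14d control 1 was the highest pool, as it was for Snord14e. Snora34 with Mir1291 stood at 9.37 and 9.41 in ethanol against 9.60 and 9.48 in control, a difference of -0.15 ± 0.08.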
